A study of Mus musculus with 6 samples.

Results

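Basement membranes are thin sheets of extracellular matrix, and 10 genes that encode their non-collagen core were followed in whole mouse ovary: the laminin chain genes Lama1, Lama2, Lama4, Lama5, Lamb1, Lamb2 and Lamc1, the nidogen genes Nid1 and Nid2, and the perlecan gene Hspg2. The genes were chosen by name, and each matched 1 of the 37924 rows of the deposited expression table. The ovaries came from mice of the strain C57BL/6J/129S7/SvEvBrd at postnatal day 14. Both groups were homozygous for the same floxed allele. The control group had no Cre, and the conditional knockout group (cKO) also carried Gdf9iCre+, a Cre recombinase under the promoter of the oocyte gene Gdf9. There were 3 libraries per group. Each pooled 3 ovaries, 1 per mouse, so that p-values measure how pools of animals vary and not how single mice do. Values for the libraries of a group are always given in the order 1, 2, 3.

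Laminins are cross-shaped trimers of 1 alpha, 1 beta and 1 gamma chain that polymerise on the cell surface. Nidogens and the heparan sulfate proteoglycan perlecan link the laminin sheet to a separate network of type IV collagen. In the ovary such a sheet, the follicular basal lamina, surrounds the granulosa cells of every follicle and keeps blood vessels out, and granulosa cells are known to make many of its parts. Vessels, smooth muscle, nerves and the surface epithelium have basement membranes of their own, and values from whole ovary do not say which sheet a transcript belonged to.

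Nidogens bind laminin through a short loop of the gamma 1 chain, which Lamc1 encodes. The codons of that loop are shown because they join 3 of the genes described here. The printed stretch, flanking bases included, lies in exon 14 of Lamc1 at chr1:153243331-153243411 on the minus strand (GRCm38, the assembly of mm10, and a GENCODE M21 transcript). Capitals mark the 7 codons of the loop, residues 831 to 837 of the 1607 that the longest reading frame encodes, and lower case marks 30 bases on each side.

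Lamc1: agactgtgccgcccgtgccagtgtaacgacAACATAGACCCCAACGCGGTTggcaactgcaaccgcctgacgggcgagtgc

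An identical loop was not encoded in the longest transcript of Lamc3, another gamma chain gene. This does not say whether the Lamc3 chain binds nidogens. Promoter sequences from RefSeq (GRCm38.p6; 250 bases before to 50 bases after the start) were matched for 6 of the 10 genes. Those of Nid1, Lamb1 and Lamb2 are shown because every cKO library exceeded every control library for these genes. The promoter of Hspg2 is shown as that of a gene whose groups overlapped. Capitals mark matches to GGGCGG (the core of a GC box) or CCAAT on either strand.

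Nid1, chr13:13437352-13437651, plus strand: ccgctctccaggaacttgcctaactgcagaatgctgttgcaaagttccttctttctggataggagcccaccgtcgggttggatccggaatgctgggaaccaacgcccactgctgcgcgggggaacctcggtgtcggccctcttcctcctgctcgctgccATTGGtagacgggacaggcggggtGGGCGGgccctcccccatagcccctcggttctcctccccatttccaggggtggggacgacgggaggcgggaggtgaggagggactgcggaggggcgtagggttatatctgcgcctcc

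Lamb1, chr12:31265043-31265342, plus strand: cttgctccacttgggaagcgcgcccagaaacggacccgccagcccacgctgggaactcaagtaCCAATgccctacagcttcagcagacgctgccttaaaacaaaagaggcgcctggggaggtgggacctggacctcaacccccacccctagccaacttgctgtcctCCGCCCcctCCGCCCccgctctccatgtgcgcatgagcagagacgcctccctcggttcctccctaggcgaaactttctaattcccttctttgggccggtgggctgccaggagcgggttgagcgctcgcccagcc

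Lamb2, chr9:108479612-108479911, plus strand: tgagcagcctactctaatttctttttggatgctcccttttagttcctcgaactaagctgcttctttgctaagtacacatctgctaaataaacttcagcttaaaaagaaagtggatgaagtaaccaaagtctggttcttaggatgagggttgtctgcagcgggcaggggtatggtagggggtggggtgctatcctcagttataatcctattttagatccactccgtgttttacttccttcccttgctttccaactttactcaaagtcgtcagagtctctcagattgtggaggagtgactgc

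Hspg2, chr4:137468553-137468852, plus strand: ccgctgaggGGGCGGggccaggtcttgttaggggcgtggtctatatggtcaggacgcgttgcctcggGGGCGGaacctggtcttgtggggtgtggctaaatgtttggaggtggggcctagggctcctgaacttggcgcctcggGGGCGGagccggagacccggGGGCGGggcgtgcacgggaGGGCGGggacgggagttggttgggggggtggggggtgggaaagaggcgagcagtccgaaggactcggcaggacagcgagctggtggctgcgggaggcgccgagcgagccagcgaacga

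The promoters of Nid1, Lamb1 and Hspg2 were rich in G and C, at 64.7%, 63.7% and 70.3%, against a median of 53.0% over 32544 distinct promoters of 300 bases. The promoter of Lamb2 had 44.0%. GGGCGG occurred 1 time in Nid1, 2 times in Lamb1 and 5 times in Hspg2, and 35.9% of all promoters held at least 1 match. CCAAT occurred 1 time each in Nid1 and Lamb1, and 37.4% of all promoters held it. Neither motif was in the Lamb2 window, and TATAAA, which 13.6% of all promoters held, was in none of the 6 windows. No match to one motif overlapped a match to another. A match is a description of letters, not of a bound factor.

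FPKM counts fragments per kilobase of transcript and per 1e6 mapped fragments, so levels of genes with transcripts of unequal length can be compared. The differences between groups are log2 changes of FPKM + 1, cKO minus control, tested with limma over all 14934 genes with a mean FPKM of at least 0.5. Genes are said to rise or fall where the adjusted p was below 0.05. Estimated depth was 19.6 M to 24.9 M fragments per library (M for mega). The long transcripts of the 10 genes collected about 1051 to 18446 fragments each per library at that depth, so counting error was at most 3.08% of a value by this estimate. Between 13170 and 13649 genes reached 1 FPKM, and mitochondrial transcripts made up 7.31% to 14.2% of the summed FPKM. Gdf9, the gene whose promoter drives the Cre, was at 221 ± 21.2 FPKM in the control libraries and 267 ± 72.7 FPKM in the cKO libraries (SD, n = 3; limma adjusted p = 0.476). Markers of the labelled tissue were present, with 6 of 6 granulosa cell markers and 6 of 6 oocyte markers above the level needed for testing. Control 3 stood apart from the other controls, and it held the highest control value of 9 of the 10 genes. Its summed level of 5 adipose tissue markers was 23.9 FPKM against 12.6 and 12.8 FPKM. Most of that excess was Fabp4, at 15.2 FPKM against 5.98 and 5.37 FPKM. Plin1 in the same list went the other way, at 4.95 FPKM against 6.18 and 6.79 FPKM. The part of these differences of control 3 in the results was not tested. Values without control 3 are given for the genes whose groups overlapped.

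All 10 genes were expressed and tested. Lama1 fell in the cKO ovaries, and 0 of the 10 rose, although Nid1, Nid2, Lamb1 and Lamb2 were higher in every cKO library than in any control. Over all genes tested, 2.24% rose and 2.09% fell. That split, 334 against 312, was 254 against 577 with libraries centred on their median. At an unadjusted p below 0.05, limma gave 4 of the 10 genes as higher and 1 as lower, against 14.5% and 9.80% of all genes tested. The median log2 change of the 10 genes was 0.21, and that of all genes tested was 0.05. Groups without overlap were found for 4 higher and 1 lower of the 10 genes, while 18.0% and 12.0% of all genes tested were separated in those directions.

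**Figure D1:**
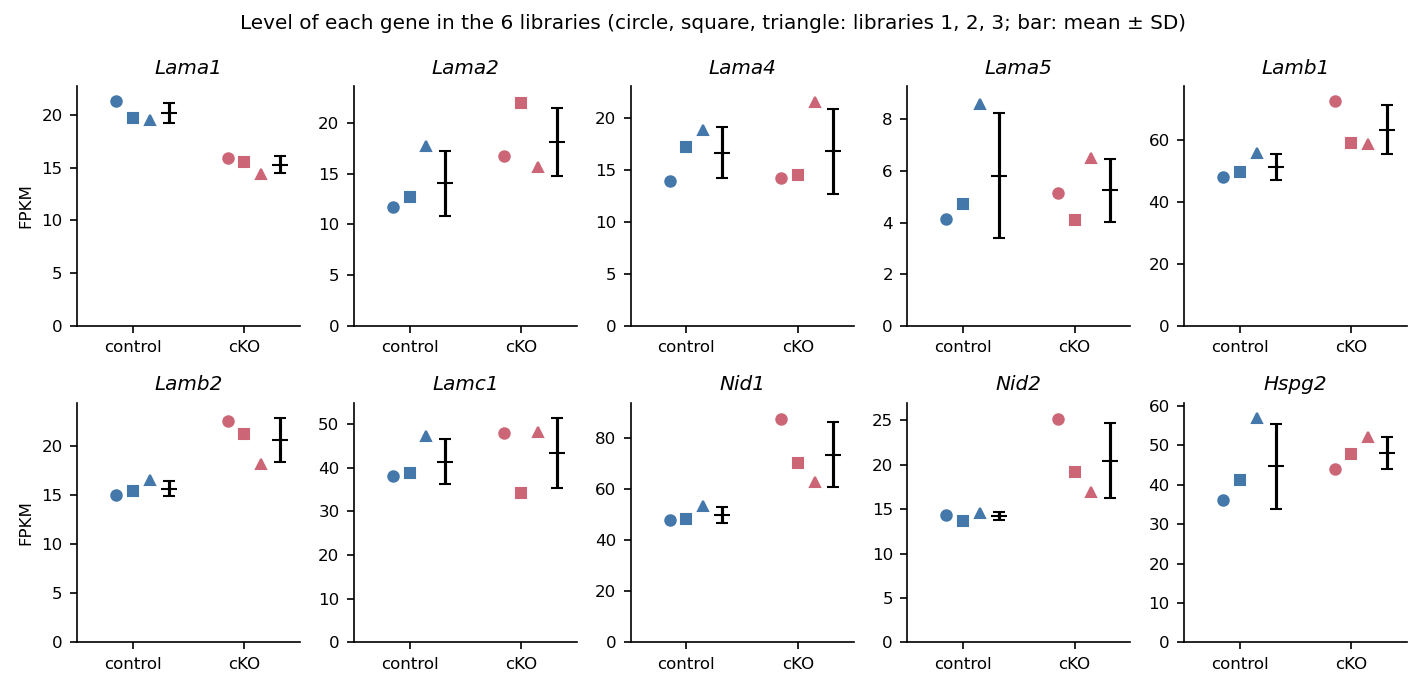
FPKM (vertical axis, from 0) of the 10 genes in each library, by group; circles, squares and triangles are libraries 1, 2 and 3, and the black bars are the mean ± SD of 3 libraries. Lama1 lies lower in cKO and Lamb1, Lamb2, Nid1 and Nid2 lie higher, without overlap, while control 3 (blue triangles) tops the controls for every gene but Lama1.

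Summed over the 10 genes, control libraries held 251, 261 and 309 FPKM and cKO libraries 352, 308 and 315 FPKM, so control 3 exceeded cKO 2 by a small margin. Compared with each other, the genes fell into 3 ranges of level. Nid1, Lamb1, Hspg2 and Lamc1 formed the upper range, with means over the 6 libraries of 61.6, 57.4, 46.3 and 42.4 FPKM. Their libraries overlapped with those of the neighbours in this order. Lamb2, Lama1, Nid2, Lama4 and Lama2 followed at 18.2, 17.7, 17.3, 16.7 and 16.1 FPKM, and the libraries of these 5 overlapped when both groups were pooled. Within groups Lama1 changed its place: its controls (19.5 to 21.3 FPKM) lay above every control library of the other 4, and its cKO libraries (14.4 to 15.9 FPKM) below every cKO library of Lamb2 and Nid2. The lowest library of the upper range, at 34.2 FPKM for Lamc1, lay above the highest of the middle range, at 25.2 FPKM for Nid2. Lama5 was lowest, between 4.11 and 8.59 FPKM, and no library of it reached the 11.7 FPKM at which Lama2 began.

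Lama1 (ENSMUSG00000032796, chr17:67697259-67822647, plus strand) encodes laminin alpha 1, the alpha chain typical of early embryonic basement membranes. The control libraries gave 21.3, 19.7 and 19.5 FPKM and the cKO libraries 15.9, 15.6 and 14.4 FPKM. The cKO libraries were all below the controls, and both groups were tight. The mean went from 20.2 ± 0.97 down to 15.3 ± 0.82 FPKM (SD, n = 3). Lama1 fell by 0.38 on the log2 scale (SE 0.08, limma adjusted p = 0.0457). The direction held in each of 18 alternative fits, but the call was lost in 11 of them, among these each of the 6 fits with 1 library left out, where the adjusted p ran from 0.068 to 0.185. The difference of Lama1 had the opposite sign to those of the nidogen and beta chain genes in the same libraries, under every alternative tried.

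Lama2 (ENSMUSG00000019899, chr10:26980036-27619758, minus strand) encodes the alpha chain best known from muscle and nerve sheaths. Control values were 11.7, 12.7 and 17.7 FPKM, and cKO values 16.7, 21.9 and 15.7 FPKM. The groups overlapped because control 3 lay above cKO 1 and cKO 3. Its log2 change of 0.35 (SE 0.18, limma adjusted p = 0.269) became 0.52 without control 3 (adjusted p = 0.109; 0.101 to 0.574 over the alternatives). It was 0.24 without control 1 and 0.21 without cKO 2.

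Lama4 (ENSMUSG00000019846, chr10:38965515-39110188, plus strand) encodes a short-armed alpha chain of vessel walls, fat and muscle. The controls were at 13.9, 17.2 and 18.8 FPKM and the cKO ovaries at 14.2, 14.5 and 21.5 FPKM. The groups overlapped over most of their ranges, and cKO 3 was the highest of all. The log2 change was -0.0042, with a 95% interval from -0.41 to 0.40, and its sign turned to 0.05 with FPKM rescaled without the mitochondrial transcripts and to 0.08 without control 3.

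Lama5 (ENSMUSG00000015647, chr2:180176373-180225859, minus strand) encodes the alpha chain found in most adult epithelial and vascular basement membranes. Controls read 4.15, 4.72 and 8.59 FPKM, and cKO ovaries 5.14, 4.11 and 6.53 FPKM. Control 3 was the highest of all 6 libraries. For Lama5 the log2 change was -0.09 with a 95% interval from -0.66 to 0.49. Without control 3 its sign turned, to 0.19 (limma adjusted p = 0.552; 0.552 to 0.934 over the alternatives).

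Within the alpha chains the make-up differed between libraries. Of the summed FPKM of the 5 alpha chain genes, Lama1 took 40.6%, 35.5% and 29.4% in the controls, and 29.9%, 27.0% and 24.2% in the cKO ovaries. Its share in control 3 was slightly below that in cKO 1, so the groups overlapped on this measure, unlike the level of the gene itself. Lama2 made up 22.3% to 26.7% in control and 26.4% to 38.1% in cKO. The ratio of Lama1 to Lama2 was 1.82, 1.55 and 1.10 in the controls, against 0.951, 0.709 and 0.916 in the cKO ovaries. Lama1 was thus the more abundant of the pair in every control library and the less abundant in every cKO library. Lama4 made up 25.3% to 36.3% and Lama3, a chain of skin-type epithelia, at most 2.57% in any library. Summed over the alpha chains, the controls spanned 52.4 to 66.4 FPKM, and the cKO libraries lay inside that range at 53.2 to 59.3 FPKM.

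**Figure D2:**
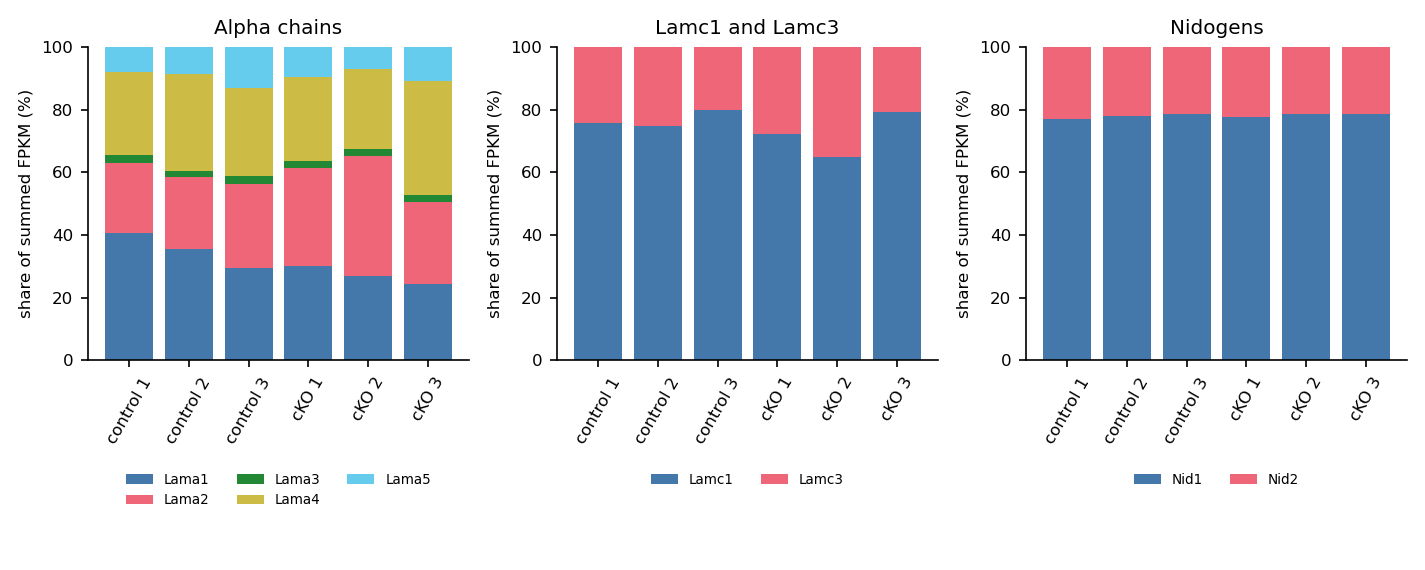
Share of the summed FPKM (%, vertical axis) taken by each gene among the alpha chain genes, the pair Lamc1 and Lamc3, and the nidogen genes, 1 stacked bar per library. The Lama1 share spans 29.4% to 40.6% in control and 24.2% to 29.9% in cKO, while the Nid1 share stays between 77.0% and 78.7% in all 6 libraries.

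Lamb1 (ENSMUSG00000002900, chr12:31265234-31329644, plus strand) encodes beta 1, the most widely used beta chain. Control ovaries gave 48.2, 49.7 and 56.0 FPKM, and cKO ovaries 72.6, 59.0 and 58.9 FPKM. Every cKO library was above every control, though cKO 2 and cKO 3 lay close to control 3. Lamb1 had a log2 change of 0.30 (SE 0.11, limma adjusted p = 0.147), which was 0.20 without cKO 1 (adjusted p = 0.295; 0.0525 to 0.384 over the alternatives).

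Lamb2 (ENSMUSG00000052911, chr9:108479736-108490530, plus strand) encodes beta 2, the beta chain of the kidney filter, the neuromuscular synapse and vascular smooth muscle. The levels were 15.1, 15.5 and 16.5 FPKM in the controls, then 22.5, 21.2 and 18.1 FPKM in the cKO ovaries. The controls lay close together and all cKO libraries were above them. Lamb2 had a log2 change of 0.37 (SE 0.10, limma adjusted p = 0.0789). The adjusted p was 0.0377 when limma weighted the libraries by their quality, and 0.0377 to 0.265 over all alternatives. The proportion of the beta chain genes varied little: Lamb1 made up 76.2% to 77.2% of their sum in control and 73.6% to 76.4% in cKO. Their sum did not overlap between groups, with 63.3 to 72.5 FPKM for control libraries and 77.0 to 95.1 FPKM for cKO libraries.

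Lamc1 (ENSMUSG00000026478, chr1:153218922-153332786, minus strand) encodes gamma 1, the gamma chain of nearly all laminins and the one with the nidogen loop shown above. Control libraries stood at 38.1, 38.8 and 47.3 FPKM and cKO libraries at 48.1, 34.2 and 48.1 FPKM. The lowest library of all was cKO 2, and the groups overlapped widely. The log2 change, 0.06, had a 95% interval from -0.29 to 0.41, and was -0.01 with libraries centred on their median. It was 0.15 without control 3, 0.22 without cKO 2, and -0.02 without cKO 1 or without cKO 3. Of the sum of Lamc1 and Lamc3, a gamma chain gene known from nerve and testis, Lamc1 made up 74.9% to 80.0% in control and 65.0% to 79.1% in cKO. Lamc3 made up the rest, with means of 12.3 ± 0.59 FPKM for controls and 16.5 ± 3.28 FPKM for cKO ovaries (SD, n = 3).

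Nid1 (ENSMUSG00000005397, chr13:13437551-13512269, plus strand) encodes nidogen 1, which joins the gamma 1 chain to type IV collagen and perlecan. The 3 controls had 48.0, 48.2 and 53.4 FPKM, and the 3 cKO libraries 87.3, 70.1 and 62.7 FPKM. All cKO libraries were above the controls, with cKO 1 far above the rest. Nid1 had the largest positive difference of the 10 genes, a log2 change of 0.54 and a ratio of means of 1.47 (SE of the log2 change 0.12, limma adjusted p = 0.0588). The adjusted p was below 0.05 in 3 of 18 alternative fits (0.023 to 0.223 over the alternatives). Without cKO 1 the log2 change was 0.41 (limma adjusted p = 0.122).

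Nid2 (ENSMUSG00000021806, chr14:19751265-19811787, plus strand) encodes nidogen 2, a paralog with overlapping binding partners. Controls had 14.4, 13.7 and 14.5 FPKM, while the cKO libraries had 25.2, 19.2 and 17.0 FPKM. The order of the cKO libraries was the same as for Nid1, and the groups did not overlap. Its log2 change was 0.48 (SE 0.14, limma adjusted p = 0.0887), and 0.33 without cKO 1 (adjusted p = 0.153; 0.0402 to 0.280 over the alternatives). In GENCODE M21, Nid2 shares 437 exon bases, 8.45% of its exon sequence, with Rtraf on the opposite strand. Nid1 and Lama2 share 2.06% and 3.86% of theirs with antisense transcripts, and reads of the partners cannot be told apart unless strand was used in counting.

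The proportion of the nidogen genes varied little. Of their sum, Nid1 made up 77.0%, 77.9% and 78.6% in the controls and 77.6%, 78.5% and 78.7% in the cKO ovaries. The sum itself ran from 61.9 to 68.0 FPKM among controls and from 79.6 to 112 FPKM among cKO libraries. Set against Lamc1, the chain that binds them, the nidogens stood at 1.63, 1.60 and 1.44 in the controls but at 2.34, 2.62 and 1.66 in the cKO ovaries. The lowest cKO ratio was barely above the highest control ratio. Nid1 relative to Lamb1 was 0.994, 0.969 and 0.954 in control and 1.20, 1.19 and 1.06 in cKO, again without overlap. Relative to Lamc1, the beta chain sum was 1.53 to 1.68 in control and 1.60 to 2.35 in cKO. The alpha chain sum was at 1.38 to 1.43 and 1.11 to 1.69, so both overlapped between groups. The ratios of Lama1 to Lama2 and of Nid1 to Lamb1 were not among those planned, and most other gene pairs were not compared. All these ratios are descriptions and carry no test.

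**Figure D3:**
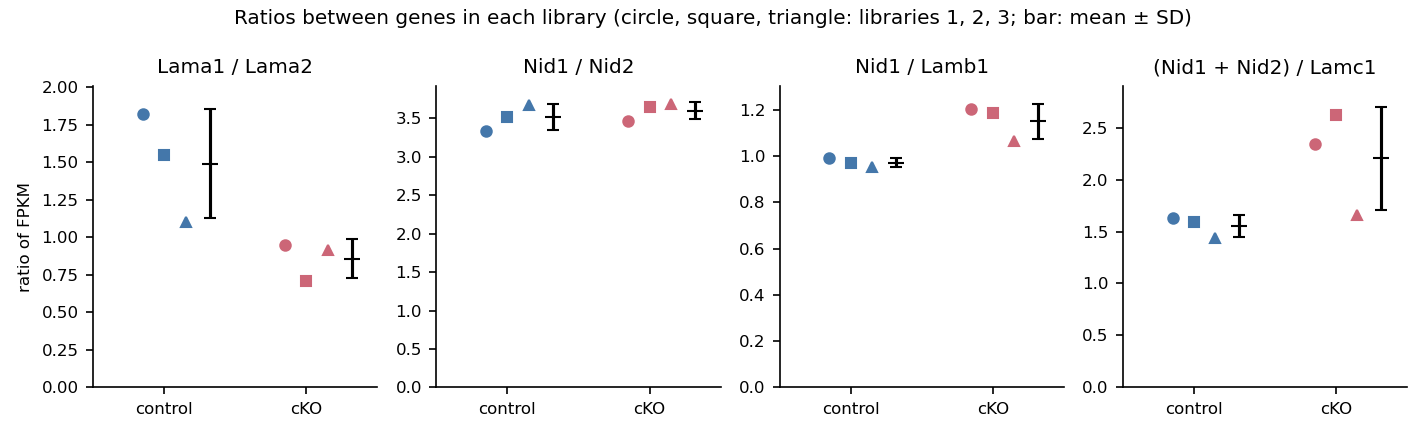
Ratio of FPKM (vertical axis, from 0) between genes in each library, by group; symbols are libraries 1, 2 and 3 and black bars the mean ± SD of 3 libraries. Lama1 over Lama2 spans 1.10 to 1.82 in control and 0.709 to 0.951 in cKO, Nid1 over Nid2 overlaps between groups, and Nid1 over Lamb1 and both nidogens over Lamc1 lie higher in every cKO library.

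Hspg2 (ENSMUSG00000028763, chr4:137468769-137570630, plus strand) encodes perlecan, a large heparan sulfate proteoglycan that binds growth factors. Control values ran 36.2, 41.2 and 56.8 FPKM, and cKO values 44.0, 47.7 and 52.2 FPKM. Control 3 exceeded all cKO libraries, and the other controls lay below them. Hspg2 had a log2 change of 0.12 (95% interval -0.25 to 0.49, limma adjusted p = 0.687). Without control 3 it was 0.30 (limma adjusted p = 0.157; 0.157 to 0.996 over the alternatives) and without control 1 it was -0.02. Relative to Lamc1 it was 0.950 to 1.20 in control and 0.917 to 1.40 in cKO.

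**Figure D4:**
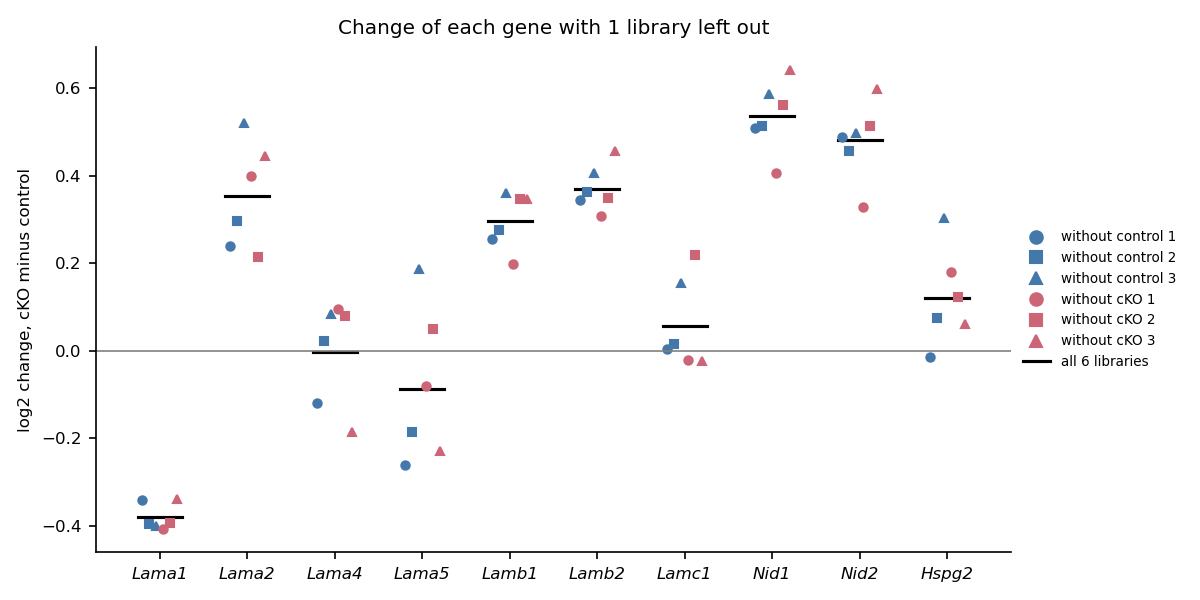
The log2 change of each gene (vertical axis, cKO minus control, of FPKM + 1) from all 6 libraries (black line) and with 1 library left out (symbols). Lama1 stays between -0.41 and -0.34 and Nid1 between 0.41 and 0.64, while the values of Lama4, Lama5, Lamc1 and Hspg2 lie on both sides of 0.

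Markers of cell types that make or border basement membranes were read in the same libraries. In bulk ovary, fewer cells of a type and less RNA per cell cannot be told apart. The summed FPKM of 5 stroma fibroblast markers was 496 to 580 in control and 680 to 913 in cKO, highest in cKO 1, the library with the highest Nid1, Nid2, Lamb1 and Lamb2. Among these markers Pdgfra and Tcf21 rose. The summed level of 6 granulosa markers was 2366 to 3032 FPKM in control and 1589 to 1955 FPKM in cKO, and most of this sum was Inha. Of the 6 log2 changes 5 were negative. Inha and Hsd17b1 fell, and Fshr and Nr5a2 were lower in every cKO library, at -0.66 and -0.38 (limma adjusted p = 0.0700 and 0.0758). Foxl2 in the same list was higher in every cKO library (log2 change 0.43, limma adjusted p = 0.128), and Amh was at -0.08. Endothelial markers (6 genes) summed to 86.6 to 90.2 FPKM for controls and 88.0 to 112 FPKM for cKO libraries, again highest in cKO 1, and none passed. Summed pericyte markers (5 genes) were at 47.2 to 49.0 and 50.3 to 56.8 FPKM, and summed smooth muscle markers (5 genes) at 876 to 1059 and 684 to 966 FPKM, with none passing in either list. Most of the smooth muscle sum was Acta2, at -0.24, and 2 log2 changes of that list were positive and 3 negative. The part of these cell types in the results was not tested.

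Among the other marker lists, 3 of 6 oocyte genes rose (Zp2, Zp3 and Figla), with sums of 824 to 939 FPKM in control and 1114 to 1714 FPKM in cKO. Most of these sums was Zp2 and Zp3. Zp1 was higher in every cKO library, at 0.70 (limma adjusted p = 0.0716), and Gdf9 was at 0.24. Bmp15 went the other way, at -0.67 with overlapping groups (limma adjusted p = 0.381). None of 6 surface epithelium markers passed, and their sum was 107 to 117 FPKM in control and 82.2 to 199 FPKM in cKO. None of 5 theca markers passed either, at 1426 to 1648 and 1476 to 1836 FPKM. Most of these sums was Hsd3b1, at -0.05. Of the 5 theca log2 changes 4 were positive, with a median of 0.58, and the groups overlapped for each gene. Of the 3 adipose markers tested, Plin1 rose by 0.91 on the log2 scale, while Fabp4 was lower in every cKO library, at -1.21 (limma adjusted p = 0.0890), and Adipoq was at -0.59. Oviduct, skeletal muscle and Schwann cell markers summed to at most 6.36, 2.01 and 11.2 FPKM in any library, and 4 blood markers summed to 922 to 6252 FPKM with none passing. Of 5 immune markers Cpa3 rose; their sum was at most 17.1 FPKM except in cKO 3, where it was 319 FPKM, nearly all of it S100a9. No marker found in the table was at 0 in all 6 libraries. Over all genes tested, 0 rose without control 2 or without cKO 1, so every marker that rose lost the call in those fits. Markers other than Gdf9 were not followed singly through the alternative fits.

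Other basement membrane genes were read from 6 lists with 59 genes, of which 56 were tested, 8 rose and 2 fell. Of all genes tested, 2.24% rose and 2.09% fell. Type IV collagen forms the second network of the sheet, to which nidogens tie the laminins. Of its 6 chain genes Col4a3, Col4a4 and Col4a5 rose and none fell, with a median log2 change of 0.46 for the list. The medians of the remaining lists were lower: 0.14 (other laminin chains), 0.21 (other components), 0.06 (receptors), -0.07 (assembly enzymes) and -0.08 (dystroglycan glycan genes). Over all genes tested the median was 0.05. Col4a4 had 6.30, 5.90 and 4.48 FPKM in the controls and 15.5, 16.6 and 10.3 FPKM in the cKO ovaries, and it rose by 1.19 on the log2 scale (SE 0.19, limma adjusted p = 0.0254). Col4a3, its neighbour in the genome, rose by 0.59 and Col4a5 by 0.48. The abundant pair Col4a1 and Col4a2 had log2 changes of 0.20 and 0.32 (limma adjusted p = 0.360 and 0.143); like Nid1 and Lamb1, they were higher on average without passing.

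**Figure D5:**
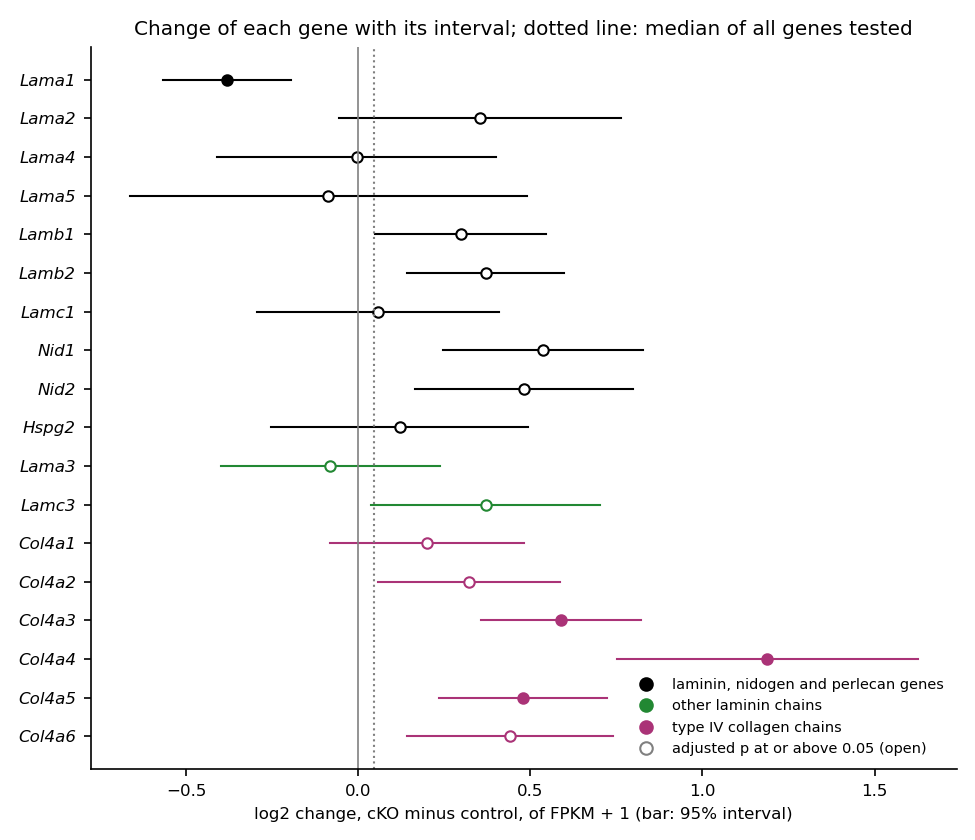
The log2 change (horizontal axis, cKO minus control, of FPKM + 1) with its 95% interval for the 10 genes, the other laminin chains tested and the type IV collagen chains; filled points have an adjusted p below 0.05, and the dotted line is the median of all genes tested, 0.05. Lama1 is the filled point on the left at -0.38, and Col4a3, Col4a4 and Col4a5 are filled on the right.

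Of 3 other laminin chain genes, 2 were tested and none passed: Lamc3 had a log2 change of 0.37 and Lama3 one of -0.08 (limma adjusted p = 0.172 and 0.756). Among 17 tested genes of other basement membrane components, Col18a1, Npnt and Frem1 rose and Col15a1 and Fbln1 fell. Col18a1, which encodes the collagen that releases endostatin, rose from 33.5 ± 2.98 to 77.6 ± 17.1 FPKM, and Npnt, an integrin ligand gene, from 3.08 ± 0.47 to 5.48 ± 0.70 FPKM (SD, n = 3). Frem1 rose by 0.85, while Col15a1 fell by 0.58 and the fibulin gene Fbln1 by 0.76 on the log2 scale.

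Receptors for laminins, collagens and other basement membrane parts were measured at the same time. Of 13 genes Itga6 and Sdc4 rose and none fell. Itga6, which encodes the alpha 6 integrin subunit that binds laminins, had 78.1, 79.1 and 116 FPKM in the controls and 191, 154 and 143 FPKM in the cKO ovaries, and it rose by 0.85 on the log2 scale (limma adjusted p = 0.0436). The syndecan gene Sdc4 rose by 0.47. None of 10 assembly enzyme genes passed, and 4 of their log2 changes were positive and 6 negative. Serpinh1, a collagen chaperone gene, was at -0.35 and P4hb, which encodes a subunit of prolyl hydroxylase, at -0.33. Within this list 2 genes were higher and 4 lower in every cKO library. Over all genes tested, 18.0% and 12.0% were separated in those directions. The 2 higher were Qsox1 and Pxdn, at 0.48 and 0.36 (limma adjusted p = 0.0541 and 0.0885). The 4 lower were Serpinh1, P4hb, Plod3 and P4ha1, the last 2 at -0.43 and -0.39 (limma adjusted p = 0.113 and 0.0847). None of 8 genes for the laminin-binding glycan of dystroglycan passed, with Pomgnt1 at -0.04 and B4gat1 at -0.11. The value of B4gat1 is uncertain, since it shares 85.3% of its exon bases with AC124502.3 on the same strand, and Pomgnt1 shares 11.7% with Lurap1 on the opposite strand. All 10 of the passing genes in these lists lost the call without control 1, without control 2 or without cKO 1, and also with no filter on low values and against cKO 1 alone. Of these 10, 1, 4 and 8 passed without cKO 2, cKO 3 and control 3, 5 passed without control 3 and cKO 3, and 7 passed with no trend.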

How the data were processed

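Ovarian RNA of 6 pools was sequenced by Illumina in 1 lane. The authors deposited FPKM per gene; TopHat2 2.0, Cufflinks 2.0 and mm10 are named by the submitters' processing notes without a role. The annotation, filters and use of strand were not given in the sources used here. FPKM divides by the library total, so abundant transcripts shift all others, and genes that overlap can share fragments.

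Groups follow the genotype label. Library numbers follow the order of deposit. limma 3.58.1 in R 4.3.3 (lmFit, eBayes with a mean-variance trend) was fitted on log2(FPKM + 1) over the 14934 genes with a mean FPKM of at least 0.5, with Benjamini-Hochberg adjustment over all of them. The procedure was tested on simulated data. Depth was estimated from FPKM values below 0.15, each read as 1 fragment, in genes with 1 transcript of at least 1500 bases, less 150 bases. Coordinates are from GENCODE M21 and are 1-based. Older symbols were matched through Ensembl identifiers and RefSeq synonyms.

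The genes and lists were chosen with earlier results of these data known. Named genes were the 10 genes, Gdf9, every passing gene of a pathway list (or the 2 with the highest mean where none passed) and passing cell markers. Col4a1, Col4a2, S100a9, Foxl2, Amh, Fshr, Nr5a2, Zp1, Bmp15, Fabp4, Adipoq, Hsd3b1, Acta2, Qsox1, Pxdn, Plod3 and P4ha1 were named after their values were seen. The floxed gene and 1 gene of the pathway lists are not reported here.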

Additional observations from a re-analysis of the deposited data

How the results depend on the processing

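No paired analysis was possible because no number in the labels links a control to a cKO pool. Comparing the 3 controls with cKO 1 was an alternative chosen after seeing the data; it takes the spread from the controls alone. Among 18 alternatives Nid1 passed in 3, Lamb2 and Nid2 in 1 each, Lama1 in 7, and the other 6 genes in 0. Of the 10 genes, 1 rose with a mean FPKM of at least 2, 1 with robust moderation and 3 with array weights, instead of 0. Instead of 1, 0 fell with no filter, with FPKM rescaled without mitochondrial genes, with no trend, with control 3 and cKO 3 both left out, against cKO 1 alone, and (range 0 to 0) with any 1 library left out. Over all genes, 4 rose and 24 fell with no filter, 1041 and 743 with array weights, 0 to 307 and 2 to 353 with 1 library left out, 204 rose without control 3 and cKO 3, 22 rose and 1 fell against cKO 1 alone, and 577 fell with median centring. The cause was not tested.

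Some log2 changes near 0 turned. Lama4 was 0.051 with FPKM rescaled without mitochondrial genes, 0.043 with array weights and -0.19 to 0.095 with 1 library left out. Lama5 was 0.12 with array weights, 0.045 without control 3 and cKO 3, and -0.26 to 0.19 with 1 library left out. Lamc1 was -0.0082 with median centring, and -0.023 to 0.22, like Hspg2 at -0.015 to 0.30, with 1 library left out. Pomgnt1 was 0.017 with FPKM rescaled without mitochondrial genes and -0.11 to 0.020 with 1 library left out, B4gat1 was 0.042 against cKO 1 alone, and Lama3 was 0.031 without control 3 and cKO 3 and -0.16 to 0.011 with 1 library left out. For Lama5, the gene with the fewest fragments, the estimated counting error was at most 3.08% of a value, against a control SD of 2.42 on a mean of 5.82 FPKM.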
